A study of Drosophila melanogaster with 7 samples.

Results

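The array features described here are 21 cDNA clones that carry sequence of 14 retrotransposon families of *Drosophila melanogaster*, out of 10376 features in all. They are the clones with an entry in the transposon column of the study's list of features altered in embryos of the *lola* null allele *lolaORE76*, apart from those of _297_, _copia_ and _roo_. All 21 were found under their own names among the deposited values of a second allele, *lolaORC4*, and each had a value on every array. By the structure of the element, 18 clones of 11 families belong to long terminal repeat (LTR) elements: _blood_ (4 clones), _412_ (3), _Stalker2_ (2), _Max-element_ (2) and 1 clone each of _Stalker_, _opus_, _17.6_, _Tirant_, _HMS-Beagle_, _mdg3_ and _3S18_. The remaining 3 clones are non-LTR elements: _F-element_, _TART-A_ and _Rt1b_. Because the clones were listed for having changed in another *lola* allele, they are not a sample of the retrotransposons of the fly.

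Retrotransposons are genomic elements that move through an RNA copy. LTR elements are transcribed from a promoter inside their terminal repeats, and many of them resemble retroviruses in the order of their genes. Non-LTR elements use an internal promoter and are copied into DNA at the site of insertion. Many families of LTR elements are transcribed in the fly embryo in patterns that differ between families and tissues, and small RNA pathways keep them silent in the germ line and elsewhere. A clone of such an element can report the summed RNA of many genomic copies, so its value need not be that of a single locus.

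The material was RNA of whole embryos aged 10 to 12 hours after egg laying, about 300 embryos to a sample. All embryos were *w1118* and carried the neural driver *sca-GAL4* on one second chromosome and the marker *UAS-tau-eGFP* on the other, and they were picked under the microscope by green fluorescence in the nervous system. In mutant embryos both of these chromosomes also bore *lolaORC4*, and in control embryos neither did. *lolaORC4* inactivates a single isoform, K, of the transcription factor Lola. Each of the 7 spotted arrays received 1 mutant and 1 control sample collected together, and the labels place the mutant in Cy3 on replicates 1, 4 and 6 and in Cy5 on replicates 2, 3, 5 and 7. The study's methods instead give Cy3 to the mutant in 4 of the 7 pairs of each experiment. Dye orientations here are those of the labels. No genomic DNA of these embryos was measured. The number of element copies, which is known to vary between stocks, and the RNA made per copy therefore cannot be told apart, nor can an effect of the allele from one of the chromosome that carries it. In whole embryos, fewer cells of a type and less RNA per cell cannot be told apart either, and the deposited ratios hold no level by which tissue markers could be checked.

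Each value is a log2 ratio of the 2 channels of an array, and the labels and methods do not settle which sample is the numerator. Every pair of arrays had a positive correlation across features, which are not independent replicates: r was 0.30 to 0.72 where the dyes were placed alike and 0.06 to 0.63 where they were exchanged. All values were multiplied by -1 so that the 6 _copia_ features, at 2.04 ± 0.32 (SD, n = 7 arrays), are positive. A positive value thus lies on the same side as _copia_ and a negative value on the opposite side, where the 7 _297_ features lay at -2.89 ± 1.08 (SD, n = 7). Neither side is given here as higher or lower in the mutant. Each feature's mean over the arrays was tested against 0 with *limma*, with Benjamini-Hochberg adjustment over all 10376 features. A feature passed at an adjusted p under 0.05.

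Of the 21 clones, 13 passed, 7 on the _copia_ side and 6 on the opposite side, and 8 did not pass. Over all features 7.64% passed (3.18% on the _copia_ side and 4.46% on the opposite side), against 61.9% of these clones. The median absolute mean of the clones was 0.46, against 0.06 over all features, and 8 of the clones had an absolute mean over 1, of 52 such features on the arrays. Because the clones were listed for a change in another *lola* allele, these contrasts do not set retrotransposons apart from other features of that list. The clones did not move as a block: 10 of the means were positive and 11 negative, with a median of -0.08, against 0.01 over all features. The same sign on 7 of 7 arrays was found for 13 of the 21 clones, against 11.6% of all features. These 13 were the clones that passed, and the test on the same arrays favours such features.

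**Figure D1:**
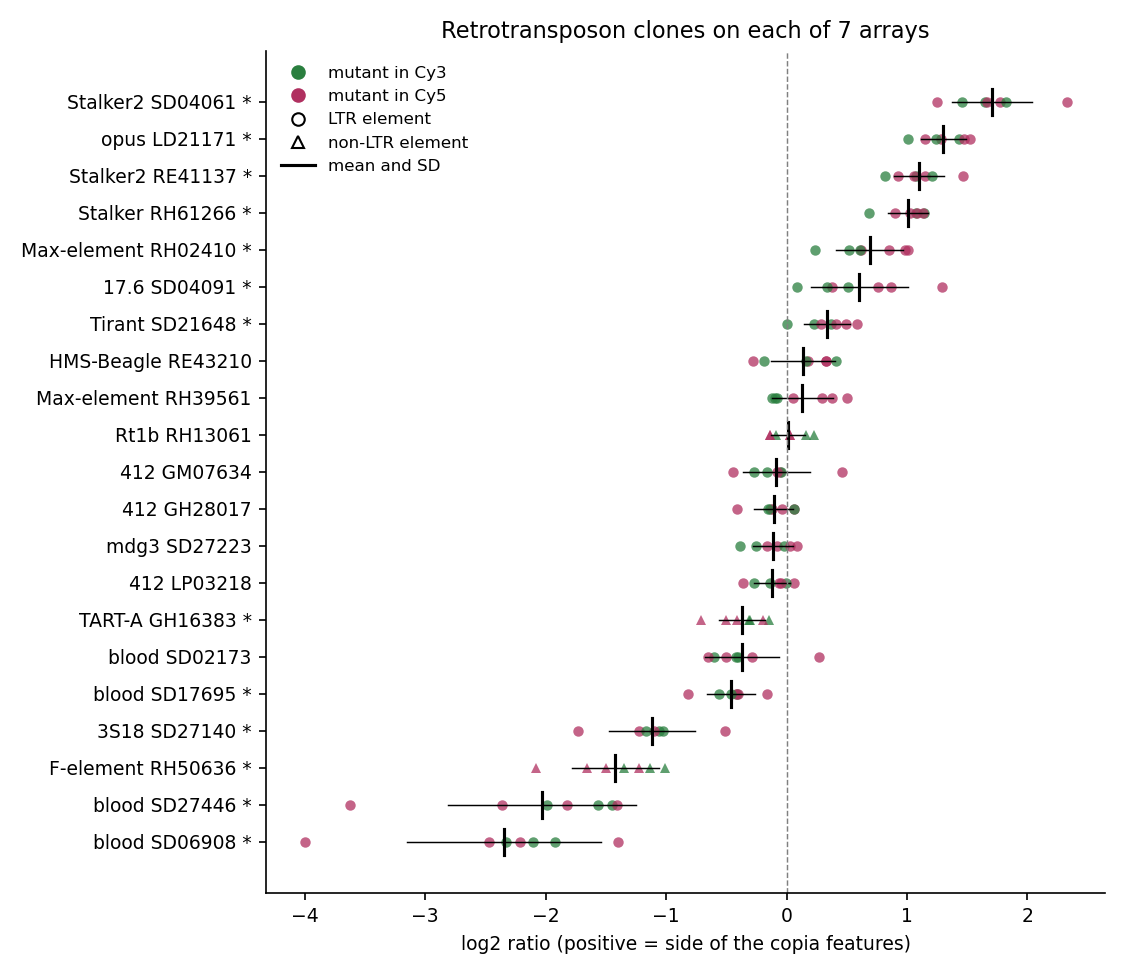
Log2 ratio of each of the 21 retrotransposon clones (vertical axis, family and clone) on each of 7 arrays (points, coloured by the dye of the mutant; circles are LTR elements and triangles non-LTR elements), with the mean (bar) and SD (line); an asterisk marks the clones that passed an adjusted p under 0.05. Means run from 1.70 for _Stalker2_ to -2.35 for _blood_, and the 13 clones with an asterisk keep to one side of 0 on all 7 arrays.

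The largest values on the _copia_ side came from 3 LTR families. _Stalker_, _Stalker2_ and _opus_ belong, like _blood_ and _412_, to the Gypsy superfamily, whose members have the gene order of retroviruses. The _Stalker2_ clone SD04061 lay between 1.25 and 2.33, with a median of 1.67, and its mean was 1.70 (standard error 0.11, adjusted p = 4.8e-05 from *limma*), which is a 3.26-fold difference between the channels. The second _Stalker2_ clone, RE41137, lay between 0.82 and 1.46 with a median of 1.07. Its mean was 1.10 (standard error 0.07, adjusted p = 4.8e-05 from *limma*). Replicate 7 was the highest array for both clones. _Stalker_, represented by RH61266, lay between 0.69 and 1.14, with a median of 1.08 and a mean of 1.01 (standard error 0.06, adjusted p = 3.8e-05 from *limma*), or 2.01-fold. Its lowest array was replicate 6, and the other arrays were all at 0.90 or above. The _opus_ clone LD21171 had the smallest p of the clones, with values from 1.01 to 1.52, a median of 1.28 and a mean of 1.30 (standard error 0.06, adjusted p = 1.6e-05 from *limma*), or 2.47-fold. None of these 4 clones came near 0 on any array, and their means differed little between the dye orientations, at 1.23 with the mutant in Cy3 and 1.36 with the mutant in Cy5 for _opus_.

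Smaller values on the same side were those of _Max-element_, _17.6_ and _Tirant_. _Max-element_ belongs to the BEL superfamily of LTR elements, as _roo_ does. Its clone RH02410 lay between 0.24 and 1.01 (median 0.62), with a mean of 0.69 (standard error 0.09, adjusted p = 0.0018 from *limma*). _17.6_ is the closest relative of _297_ among the families named here, yet its clone SD04091 lay on the other side from _297_. It was at 0.09 on replicate 1 and at 1.29 on replicate 2, with a median of 0.51 and a mean of 0.61 (standard error 0.13, adjusted p = 0.019 from *limma*). This spread between arrays, an SD of 0.40, was wider than that of any other clone on the _copia_ side. The clone did not pass without replicate 5 (0.56, adjusted p = 0.061) or without replicate 7 (0.58, adjusted p = 0.061, *limma*). _Tirant_, an element with an envelope gene, lay between 0.00 and 0.58 on SD21648, with a median of 0.37 and a mean of 0.34 (standard error 0.06, adjusted p = 0.013 from *limma*).

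On the opposite side the largest values were those of _blood_, an LTR element of the lineage that also holds _412_ and _Stalker_. Clone SD06908 lay between -4.00 and -1.40, with a median of -2.21, and its mean was -2.35 (standard error 0.25, adjusted p = 0.00077 from *limma*), a 5.09-fold difference between the channels. Clone SD27446 lay between -3.62 and -1.40 (median -1.82), with a mean of -2.03 (standard error 0.24, adjusted p = 0.0011 from *limma*), or 4.08-fold. Both were farthest from 0 on replicate 7 and nearest to 0 on replicate 2. Among all features these were the 8th and 11th largest absolute means. The _3S18_ clone SD27140, of an element also called BEL after which its superfamily is named, lay between -1.73 and -0.51 (median -1.10). Its mean was -1.12 (standard error 0.11, adjusted p = 0.00066 from *limma*), or 2.17-fold. Both sides were therefore found within each LTR superfamily of these clones, Gypsy and BEL. Of the 15 Gypsy clones, 6 passed on the _copia_ side and 3 on the opposite side, and of the 3 BEL clones 1 passed on each side. _roo_, of the same superfamily as _3S18_ and _Max-element_, had a mean of 0.23 ± 0.36 (SD, n = 7) over its 8 features, none of which passed in the *limma* test.

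The non-LTR clones that passed both lay on the opposite side from _copia_. _F-element_ is a retrotransposon of the Jockey clade that ends in a run of A. Its clone RH50636 lay between -2.08 and -1.01, with a median of -1.35 and a mean of -1.42 (standard error 0.11, adjusted p = 0.00019 from *limma*), or 2.68-fold. _TART-A_ belongs to the elements that maintain the chromosome ends of the fly by transposing onto them. Its clone GH16383 lay between -0.71 and -0.15 (median -0.31), with a mean of -0.37 (standard error 0.07, adjusted p = 0.0094 from *limma*). _Rt1b_, of the R1 clade, was spread around 0, from -0.14 to 0.23, with a mean of 0.01 (95% interval -0.10 to 0.13) and an adjusted p of 0.92 (*limma*).

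Averaged over the clones of each class, the 18 LTR clones had a mean of 0.01 ± 0.15 (SD, n = 7 arrays) and the 3 non-LTR clones a mean of -0.59 ± 0.20 (SD, n = 7). The LTR mean was above the non-LTR mean on every array, by 0.27 on replicate 6 and by 0.79 on replicate 2 at the extremes, and the difference was 0.61 ± 0.20 (SD, n = 7). It is given as a description, without a test. The LTR mean near 0 hides values on both sides: 7 LTR clones passed on the _copia_ side, 4 on the opposite side, and 7 did not pass. Of the non-LTR clones none passed on the _copia_ side, 2 passed on the opposite side and 1 did not pass. The non-LTR mean rested on _F-element_, whose only clone the platform's annotation names after the gene *MtnA*. Without that clone the other 2 averaged -0.18. Without the 4 _blood_ clones, the LTR mean was 0.39. With each family counted once the difference between the classes was 0.83, and with medians in place of means it was 0.38. The 4 families with the largest values on the _copia_ side were all LTR elements, and the lowest family mean, that of _F-element_, was followed by the LTR families _blood_ (-1.30 ± 0.49, SD, n = 7) and _3S18_. The ranges over arrays of these 3 families overlapped.

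**Figure D2:**
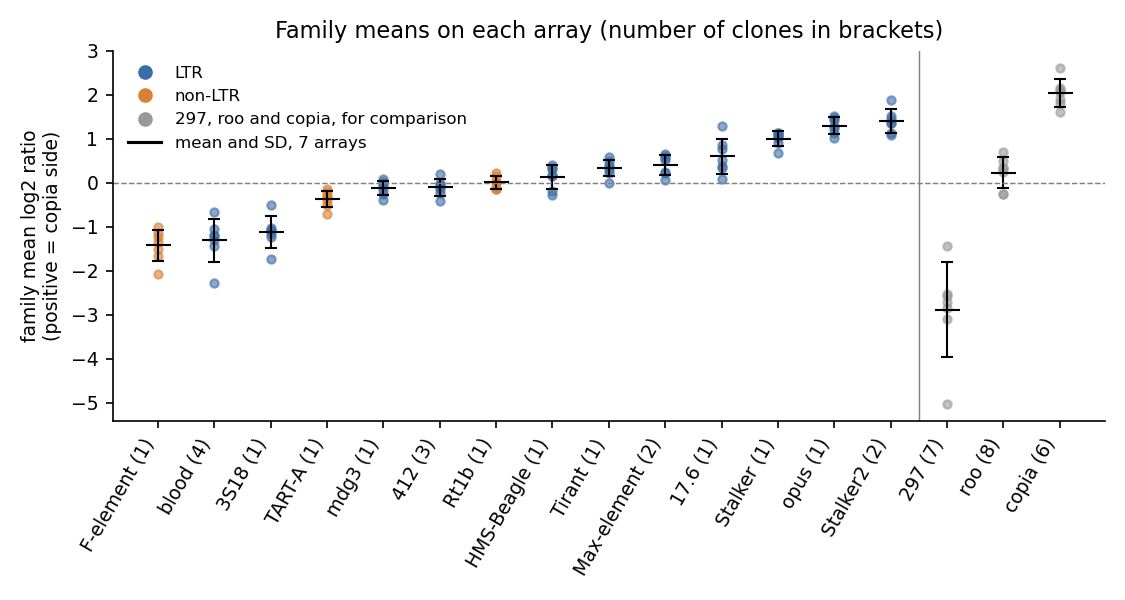
Family means of the log2 ratio on each of 7 arrays (points), with the mean and SD over arrays (black), for the 14 families in order of their means and, on the right, for _297_, _roo_ and _copia_; the number of clones stands in brackets. The non-LTR families lie at -1.42, -0.37 and 0.01, while the LTR families run from -1.30 to 1.40.

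Families with more than 1 clone allowed the clones to be set against each other on the same arrays. All 11 pairs of clones of the same family were compared by an exact two-sided permutation test that turns the sign of the difference on each array. With 7 arrays the exact permutation test cannot go below p = 0.016. The pairs that passed after Benjamini-Hochberg adjustment over the 11 numbered 7, and they came from _blood_, _Stalker2_ and _Max-element_. In _blood_ the 4 clones fell into a strong pair, SD06908 and SD27446, and a weak pair, SD17695 and SD02173. Only the clones of the weak pair also carry the name of a host gene, *Ets96B* and *dpy*. SD17695 lay between -0.82 and -0.16 with a mean of -0.46 (standard error 0.07, adjusted p = 0.0031 from *limma*), and SD02173 had a mean of -0.37 (standard error 0.10, adjusted p = 0.051 from *limma*). SD06908 minus SD17695 was -1.89 ± 0.63 (SD, n = 7; exact permutation p = 0.016, adjusted p = 0.029), and that between SD27446 and SD02173 was of similar size, with SD02173 higher by 1.66 ± 0.67 (SD, n = 7; exact permutation p = 0.016, adjusted p = 0.029). On no array did the range of the strong pair reach that of the weak pair. Within the strong pair the clones differed by -0.32 ± 0.20 (SD, n = 7; exact permutation p = 0.031, adjusted p = 0.049; 0.098 after quantile normalization, where this pair did not pass), and within the weak pair by 0.09 ± 0.17 (SD, n = 7; exact permutation p = 0.22, adjusted p = 0.30).

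SD02173 stood on the edge of the threshold. Replicate 2 gave 0.27, and the rest ran from -0.65 to -0.29 with a median over all arrays of -0.42. Without replicate 2 its mean was -0.48 (adjusted p = 0.0014 from *limma*). The _Stalker2_ clones differed by 0.61 ± 0.16 (SD, n = 7), SD04061 being above RE41137 on 7 of 7 arrays (exact permutation p = 0.016, adjusted p = 0.029). The _Max-element_ clones differed by 0.56 ± 0.27 (SD, n = 7; exact permutation p = 0.016, adjusted p = 0.029). RH39561, the lower of them, had a mean of 0.13 (adjusted p = 0.41 from *limma*) and divided by dye: where the mutant was in Cy3 (3 arrays) it lay between -0.12 and -0.08, and where the mutant was in Cy5 (4 arrays) between 0.06 and 0.50. It was the one clone of the 21 whose dye coefficient passed (-0.20, adjusted p = 0.039 from *limma*; 10.6% of all features passed this test). RH02410 had a coefficient of like size (-0.21, adjusted p = 0.071 from *limma*), with means of 0.45 in Cy3 and 0.87 in Cy5. The means of _17.6_ (0.31 and 0.82) and _Tirant_ (0.20 and 0.44) also differed between the orientations, though their coefficients did not pass (adjusted p = 0.15 and 0.18, *limma*). Which stretch of the element, or of a named host gene, each clone holds was not analysed here, and its part in these differences was not tested.

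**Figure D3:**
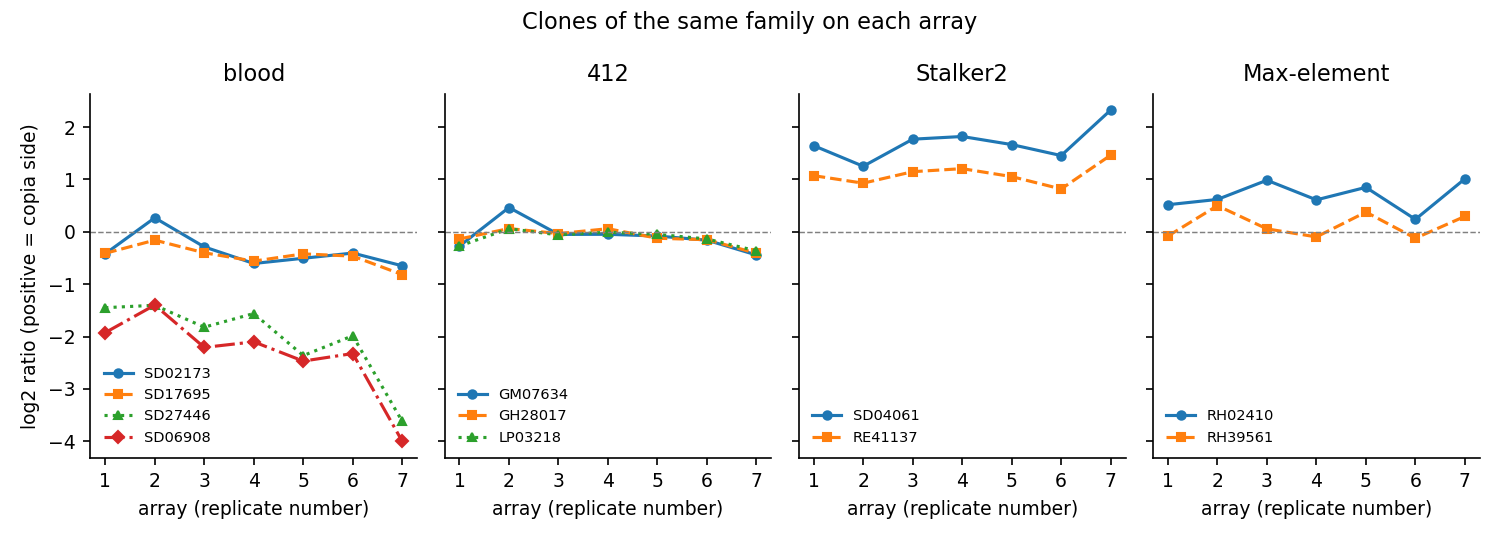
Log2 ratio of each clone of _blood_, _412_, _Stalker2_ and _Max-element_ on each of 7 arrays (replicate number; lines join the values of a clone and do not imply an order). The _blood_ clones SD06908 and SD27446 lie at -1.40 or below on every array and the other two _blood_ clones at -0.82 or above, while the 3 clones of _412_ lie close together.

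The 3 clones of _412_ lay close together and near 0. _412_ is an LTR element of the same lineage as _blood_ and _Stalker_, and in the embryo it is well known for its transcription in the mesoderm of the gonad. The means were -0.08 for GM07634, -0.10 for GH28017 and -0.12 for LP03218, with 95% intervals of -0.29 to 0.12, -0.23 to 0.02 and -0.24 to 0.00. No pair of them passed the permutation test; the differences ran from -0.02 to 0.03. Their widest spread was on replicate 2, where GM07634 was at 0.46 and the other two at 0.06. _HMS-Beagle_ (RE43210) had a mean of 0.14 and ranged from -0.28 to 0.41, and _mdg3_ (SD27223) had a mean of -0.11 and ranged from -0.39 to 0.09, both crossing 0. Their 95% intervals were -0.06 to 0.33 and -0.24 to 0.02.

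Of the 21 clones, 8 also carry the name of a host gene, in the study's list or in the annotation of the platform. In the annotation GH28017 of _412_ is named after *teq*, a serine protease gene, SD17695 of _blood_ after *Ets96B*, an ETS transcription factor gene, and SD02173 of _blood_ after *dpy*, the gene of a giant extracellular matrix protein. Likewise RE41137 of _Stalker2_ is named after *Rnf11*, a RING finger gene, RH50636 of _F-element_ after the metallothionein gene *MtnA*, and LP03218 of _412_ after *CG11406* and *Nop60B*. The study's list names RE43210 after *Prosap*, a scaffold protein gene of synapses, and SD27140 after *CG41353*. Other features of *teq*, *Prosap* and *Ets96B* allowed 6 comparisons with the retrotransposon clone, and none passed after adjustment. A single comparison at the smallest p that 7 arrays allow adjusts to 0.094 over 6 comparisons in the exact permutation test, so no comparison could pass alone. *Ets96B* had the largest difference. Its clone RH09633 had a mean of -0.02, against -0.46 for SD17695, and SD17695 was lower on 7 of 7 arrays (difference -0.44 ± 0.30, SD, n = 7; exact permutation p = 0.016, adjusted p = 0.094). The 3 other features of *teq* had means of 0.09 to 0.12, against -0.10 for GH28017, with adjusted p from 0.094 to 0.16 (exact permutation test). The means of the 2 *Prosap* features, 0.11 and 0.07, stood close to the 0.14 of RE43210. LP03218 differed from the 2 features of *Nop60B* by -0.05 ± 0.17 and -0.03 ± 0.23 (SD, n = 7), comparisons chosen after the platform's names were seen. For *dpy*, *Rnf11*, *MtnA* and *CG41353* no other feature with that single gene name was on the arrays. RE41137, RH50636 and SD27140 passed with absolute means over 1. Whether RNA of the element or of the named gene, *Rnf11*, *MtnA* or *CG41353*, gave these values was not tested.

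The size of the changes differed between arrays. For each clone that passed, the value on an array was divided by the clone's mean over the 7 arrays. On replicate 7 the median of this share was 1.46, and 9 of the 13 clones had their largest absolute value there. On replicates 1, 2 and 6 the medians were 0.80, 0.85 and 0.85, and all 13 clones had their smallest absolute value on one of these arrays. The median share over the clones on the opposite side ran from 0.565 on replicate 2 to 1.74 on replicate 7. Over the clones on the _copia_ side it ran less widely, from 0.74 on replicate 6 to 1.25 on replicate 7. Single clones did not follow this order. The lowest and the highest share of any clone, 0.015 for _Tirant_ on replicate 6 and 2.14 for _17.6_ on replicate 2, were on the _copia_ side. _297_ ran from 0.50 on replicate 2 to 1.74 on replicate 7 and _copia_ from 0.79 to 1.29 on the same arrays. The 163 other features that passed with an absolute mean over 0.5 had medians of 0.65 on replicate 2 and 1.51 on replicate 7, so this spread was not particular to retrotransposons. With every array scaled to the same SD of the features outside the retrotransposons, an alternative chosen after the data were seen, 14 clones passed, SD02173 in addition.

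**Figure D4:**
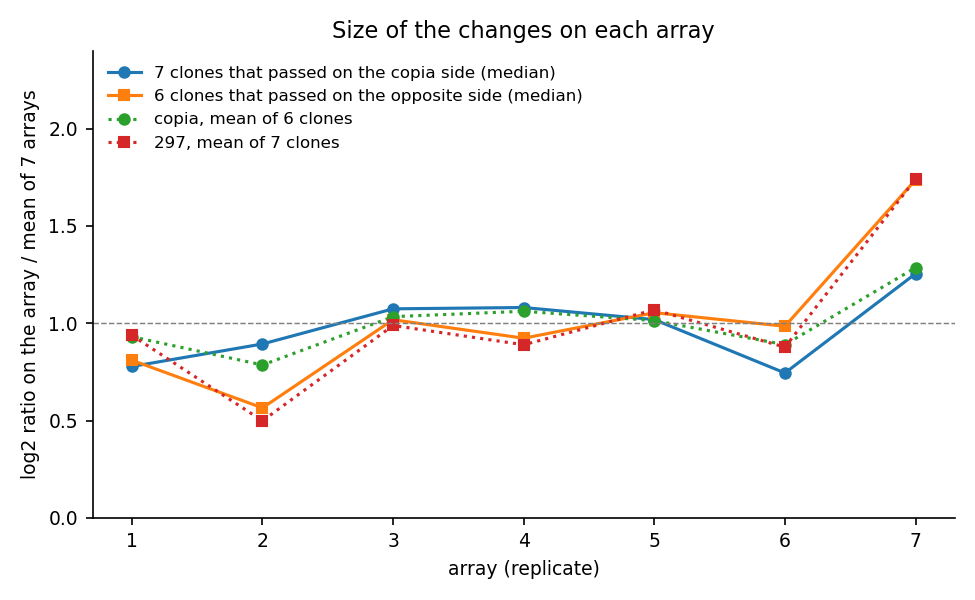
Log2 ratio on each of 7 arrays divided by the mean over arrays (1, dashed line), as the median over the 7 clones that passed on the _copia_ side and over the 6 that passed on the opposite side, and for the family means of _copia_ and _297_. The opposite-side clones and _297_ reach 1.74 on replicate 7 and lie at 0.565 and 0.50 on replicate 2; lines join the values of a group and do not imply an order.

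The features of the whole table that lay closest to a clone were taken for the 10 clones with an absolute mean of at least 0.5, by the root mean square difference over the 7 arrays. The closest feature to the _Stalker_ clone RH61266 was the _Stalker2_ clone RE41137 (difference 0.14), and the closest to RE41137 was RH55416, named after the sorting nexin gene *Snx27* and not marked as a retrotransposon (difference 0.10, mean 1.06). The next one after these for _Stalker_ was LD41905 of *Arc1*, a host gene derived from the capsid gene of a retrotransposon of this kind (difference 0.27, mean 0.82). Both *spir* clones, of the actin nucleation gene, were also among the 3 closest features, GH13327 to SD04061 and SD10157 to RE41137 and _opus_. The _blood_ clones SD06908 and SD27446 were second to each other (difference 0.37). The closest to SD06908 was the _297_ clone GH26082 (0.33), and the closest to SD27446 was HL08109, named after the thiolase gene *yip2* (0.29). The weak _blood_ clones ranked 116th to 171st.

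Clones without a gene name were closest to _Max-element_, _F-element_ and _3S18_. RE50045 lay within 0.10 of RH02410, with a mean of 0.66. RE60471 lay within 0.16 of the _F-element_ clone, with a mean of -1.40 and values from -2.26 to -0.93. SD01985 lay within 0.15 of the _3S18_ clone, with a mean of -1.15, and SD03267 of *Unc-115b*, an actin-binding protein gene, likewise within 0.15 (mean -1.01). For _17.6_ the closest was LD15472 of *unc-13*, a gene of synaptic vesicle release, at 0.20 (mean 0.56). Likeness on 7 arrays does not show that a feature holds sequence of the element. The inserts of these clones were not analysed here.

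Among 41 host genes of retrotransposon silencing, 30 were measured by 33 features, of which 3 passed, all on the _copia_ side, or 9.09% against 7.64% of all features. The median of the list was 0.04, against 0.01 over all features, and its values ran from -0.26 to 0.24. *aub* encodes a Piwi protein of the germ line, and its feature had a mean of 0.24 (adjusted p = 0.013 from *limma*). *Panx*, of the nuclear complex that silences transcription, was at 0.15 and *tej*, of the germ line piRNA pathway, at 0.14. *Panx* ceased to pass whichever array was left out (means 0.14 to 0.17, largest adjusted p 0.085), and *tej* did so for each array but replicate 2 (means 0.13 to 0.15, largest adjusted p 0.10, *limma*). None of the 8 features of 7 genes of telomere protection passed in the *limma* test, with values from -0.09 to 0.13.

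Marker genes of embryonic tissues were set beside the retrotransposon values, against 7.64% of all features that passed (3.18% on the _copia_ side and 4.46% on the opposite side). All features of the muscle (13), late epidermis (5) and gonadal mesoderm and fat body (4) lists failed the test, as did 7 of 8 of the germ cell list, whose member that passed was *aub*. Of the 10 genes listed for gonadal mesoderm and fat body only *srp*, *Fbp1*, *Fbp2* and *Lsp2* were measured. Its gonadal mesoderm genes, such as *tj* and *eya*, were not, so that tissue was not assessed. Of 6 nervous system features 3 passed on the opposite side (*nSyb*, *cac* and *nrv3*, -0.55 to -0.23; *nrv3* not without replicate 5, adjusted p = 0.051). The other 3, which did not pass, had positive means: *repo* was at 0.10, *futsch* at 0.07 and the second feature of *nrv3* at 0.04. Of 8 features of maternal transcripts 4 passed on the _copia_ side (2 features of *smg*, *BicD* and *bcd*, 0.15 to 0.52). Of these, 1 *smg* feature did not pass without replicate 4 or 5, *BicD* without 3 or 5, and *bcd* whichever of replicates 2 to 7 was left out (largest adjusted p 0.077, *limma*). Both features of *Pxn* of the hemocyte list (11 features) passed on the _copia_ side, at 0.39 and 0.21. The other 9 hemocyte features did not pass, and the list had a median of 0.02 and a lowest value of -0.15. In the tracheal list 1 of 2 features, *serp*, passed on the opposite side (-1.19), while *pio*, at 0.07, did not pass. The medians of the nervous system and maternal lists were -0.09 and 0.14, and their part in the retrotransposon values was not tested.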

How the data were processed

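The authors measured the spots of the cDNA arrays in GenePix and processed them in *limma* (version not given in the sources used here), leaving background uncorrected, with print-tip loess for each array followed by scaling across arrays. They deposited these values as log2 ratios, 1 for each feature on each array. Dim spots therefore cannot be examined. Values were complete, and the 149 control spots were kept among the 10376 features. All log2 ratios were then multiplied by -1, so that the _copia_ features are positive.

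From the deposited log2 ratios, *limma* 3.58.1 in R 4.3.3 (lmFit, eBayes) estimated the mean of every feature across 7 arrays, each the ratio of a matched pair, with Benjamini-Hochberg adjustment over all features. The number of arrays limits the precision. The labels do not say whether the samples came from separate crosses, so p-values measure the spread between these sample pairs. The fit was tested on simulated data. From the study's list only clone names, gene names and transposon entries were used. Names of genes are those of the platform's annotation, with symbols updated from RefSeq (Release 6 plus ISO1 MT). A total of 8598 features had 1 gene, and 517 with several were not used by gene, apart from LP03218 in the comparisons with *Nop60B*. List features marked as retrotransposons (1, of *sls*) were left out of the gene lists. All 21 clones are named, with the features of their host genes, the 3 features closest to each clone with an absolute mean of at least 0.5, and up to 4 features that passed from each list. The clones, lists and rules were chosen with earlier results of these data known. Alternatives were a dye coefficient, centring, leaving out control spots or 1 array, robust empirical Bayes, array weights, quantile normalization, a threshold of 0.01, Holm adjustment, other class summaries and a scaling of arrays added afterwards. No sequence of a clone or element was in the sources used, so none is shown.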

Additional observations from a re-analysis of the deposited data

Results flagged for a closer look

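In a group of 7 arrays a lone value was looked at again when its gap to the nearest other value took up more of the range than Dixon's critical value, which chance exceeds in about 1 of 20 groups. Of the 21 clones, 2 held such a value, both of _blood_. Clone SD06908 was at -4.00 on replicate 7, while the next array was at -2.47. Clone SD02173 was at 0.27 on replicate 2, and the next array was at -0.29. Replicate 7 also held the largest absolute value of 9 of the 13 clones that passed.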

How the results depend on the processing

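The number of clones that passed was 12 to 14 when 1 array was left out (6 to 7 on each side) and did not leave this range under the other alternatives run at the same threshold and adjustment. Holm adjustment left 7, of which 4 were on the _copia_ side and 3 on the opposite side. The count over all features was 441 to 810 with 1 array left out (446 without replicate 3, 441 without replicate 5 and 494 without replicate 7), 1234 with a dye coefficient, 313 at an adjusted p under 0.01 and 62 with Holm adjustment, against 793. The difference between LTR and non-LTR clones stayed between 0.58 and 0.66 with 1 array left out and was 0.83 as a mean over families and 0.38 as a median over clones; the cause was not tested. Of the single clones, _17.6_ and SD02173 of _blood_ changed sides of the threshold, as given above, SD02173 passing also with a dye coefficient, quantile normalization, array weights or the control spots left out. _Rt1b_ changed sign without replicate 4 or 6 (range -0.023 to 0.038). With 1 array left out the smallest p of the exact permutation test is 0.031. The 7 clone pairs that passed still passed without replicate 2 (adjusted p = 0.049) and none did without any other array, where SD06908 minus SD27446 had an adjusted p of 0.098 and the rest 0.057. SD06908 minus SD27446 also did not pass after quantile normalization (adjusted p = 0.098). Differences near 0 changed sign in some: GH28017 minus GM07634 (-0.047 to 0.043, and 0.0010 with quantile normalization), GH28017 minus LP03218 (-0.0065 to 0.028), GM07634 minus LP03218 (-0.028 to 0.053), LP03218 minus GM08026 of *Nop60B* (-0.067 to 0.014) and RE43210 minus GH06265 of *Prosap* (-0.020 to 0.074).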

Other observations

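The arrays also held 32 spots of fly genomic DNA, which contain repeated sequence of all kinds. Their mean was -0.07 ± 0.20 (SD, n = 7 arrays). It was positive on replicates 2, 3 and 5 (0.21, 0.10 and 0.06) and negative on replicates 1, 4, 6 and 7 (-0.35, -0.11, -0.22 and -0.22), and none of these spots passed in the *limma* test. The other kinds of control spot had means per array between -0.14 and 0.14. The family mean of _412_ was at 0.19 on replicate 2 and at -0.41 on replicate 7, and that of _roo_ at 0.71 on replicate 2 and at -0.25 on replicates 1 and 7.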
